A study of Mus musculus with 2 samples.

Results

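Csmd3, Kirrel3, Lrp1b, Igsf11, Opcml, Sdk1, Lrrc4c, Lrrtm4, Fat4 and Itga1 encode proteins that sit at the cell surface, and they are 10 of the 32183 genes in the count tables of this study. They were chosen by their UMI counts in these same libraries, which parted the neurons of 2 sympathetic ganglia of the mouse, the celiac and the superior mesenteric, into a type rich in Shox2, which encodes a homeodomain transcription factor, and a type rich in Rxfp1, which encodes a receptor for the hormone relaxin. Their levels in these neuron types are therefore given as a description and carry no test. The ganglia, which hold the sympathetic neurons that supply abdominal organs, were dissociated into cell suspensions and measured with 10x Genomics 3' v3.1 chemistry, in which each captured transcript is counted through a unique molecular identifier (UMI). There were 2 libraries of 1 group, and the series text gives 20 mice in total, 7 to 8 weeks old and with both sexes equally represented. No treatment or genotype is named in the labels. The sources used here do not tell which mice contributed to which library. The p-values therefore rest only on how far differences vary between the libraries, which may be technical. In the comparison of the neuron types, this spread was taken from a trend over all genes and not from each gene.

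Neurons meet each other, their targets and their glia through surface proteins of a few large families. Immunoglobulin superfamily proteins such as Kirrel3, Igsf11, Sdk1 and the IgLON protein Opcml bind partners on neighbouring membranes, often copies of themselves. Leucine-rich repeat proteins such as Lrrc4c and Lrrtm4 organise synapses by binding presynaptic partners, whereas integrins such as Itga1 hold cells to the extracellular matrix and the giant cadherin Fat4 binds Dachsous proteins on adjacent cells.

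Neurons were the cells of neuron-named clusters with at least 5000 UMIs, 227 in library 1 and 192 in library 2, or 419 of 23497 cells analysed. They were grouped without the 10 genes, and all fell into 5 neuron clusters. Clusters 1, 3 and 4 made up the Shox2-rich neurons, 147 and 122 cells, and clusters 2 and 5 made up the Rxfp1-rich neurons, 80 and 70 cells. Shox2 stood at 109.9 and 77.6 counts scaled to a common library total (CPM) in the Shox2-rich neurons, against 7.20 and 6.24 CPM in the Rxfp1-rich neurons. Rxfp1 stood at 84.7 and 76.9 CPM in the Shox2-rich neurons, against 360.0 and 333.0 CPM in the Rxfp1-rich neurons, so the Shox2-rich neurons were set apart by their Shox2 and also held Rxfp1 transcripts. The names depend on the clustering. At a finer resolution, 3 clusters of 91, 87 and 76 neurons joined neither population, and the Shox2-rich neurons were 14 cells. These 3 clusters shared most leading genes with clusters 1, 4 and 3 in turn. With another seed of the UMI split, 102 neurons were Shox2-rich, 109 joined neither population and 98 were led by other-cell markers. With doublets kept, 101 neurons were Shox2-rich, 54 joined neither and clusters of 98 and 94 were led by other-cell markers. All 12 neuron markers were detected in both populations, and they summed to 10420 and 10070 CPM in the Shox2-rich and 6537 and 6076 CPM in the Rxfp1-rich neurons, against 1141 to 5720 CPM in 9 other classes of cells. These classes include 69 and 63 mast cells. In library 1 only, 10 of these formed a cluster with a median of 17515 UMIs. It was led by mast cell markers and by Pcsk1n and Gng3, which also led a neuron-named cluster. The neuron marker Th stood in mast cells at 70.7% and 24.9% of its neuron level. The part of these 10 cells in the mast cell values was not tested. Nuclear RNA, followed by Malat1, differed between the neuron populations, with Malat1 at 52592 and 56760 CPM in the Shox2-rich neurons and at 79951 and 80344 CPM in the Rxfp1-rich neurons. Cluster 1 had the lowest Malat1 level, 17729 and 20979 CPM, and its leading genes included Fabp4 and Tagln, which endothelial and smooth muscle cells are known for. Its neuron markers summed to 16966 and 15766 CPM. Those of clusters 3 and 4 summed to 7122 and 7394 CPM and to 6888 and 6703 CPM. Those of clusters 2 and 5, which are Rxfp1-rich, summed to 6262 and 5856 CPM and to 7077 and 6477 CPM. The satellite glia marker list, all 7 genes detected, summed to 894 and 690 CPM in the Shox2-rich and to 410 and 308 CPM in the Rxfp1-rich neurons, and the fibroblast list of 6 genes to 929 and 1085 CPM against 164 and 801 CPM. The part of Malat1 and of other cells' RNA in the levels below was not tested. The libraries shared 64 barcodes, of which 2 were neurons with at least 5000 UMIs.

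Most of the 10 genes are very long. In the GENCODE M21 annotation of GRCm38, Lrp1b spans 2058.4 kb of chromosome 2 (40595246 to 42653624, minus strand) and Lrrc4c 1313.5 kb of the same chromosome (96318169 to 97631666, plus strand). Csmd3 spans 1211.4 kb of chromosome 15 (47580637 to 48792063, minus strand), Opcml 1134.6 kb of chromosome 9 (27790775 to 28925410, plus strand) and Sdk1 974.1 kb of chromosome 5 (141241490 to 142215586, plus strand). Lrrtm4 covers 791.3 kb of chromosome 6 (80018877 to 80810143, plus strand) and Kirrel3 550.8 kb of chromosome 9 (34485894 to 35036716, plus strand). The shorter ones are Itga1 with 148.9 kb of chromosome 13 (114953096 to 115101964, minus strand), Igsf11 with 134.5 kb of chromosome 16 (38892671 to 39027159, plus strand) and Fat4 with 125.0 kb of chromosome 3 (38886940 to 39011985, plus strand). So 7 of the 10 exceeded 500 kb, a length reached by 1.04% of 21510 protein-coding genes in the files, and their median length was 882.7 kb against 17.3 kb. Exons made up between 0.352% of the gene in Lrrc4c and 13.727% in Fat4. The sources used here do not say whether UMIs in introns were counted, so levels are compared between cells and not between these genes.

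Promoter windows, 250 bases before to 50 bases after the annotated start, were found in RefSeq (GRCm38.p6) for 7 of the 10 genes, with 8 windows in all because Lrrtm4 has a pair. Csmd3, Kirrel3 and Lrp1b had no entry. Since the 7 genes fall on both sides of the neuron divide, the windows were searched on both strands for CAGATG, an E-box of the kind bound by basic helix-loop-helix factors, and for TAATTA, a homeodomain core, and these letters do not overlap each other. CAGATG or its reverse complement CATCTG was found in the windows of Lrrc4c and Sdk1, higher in Shox2-rich neurons, and of Itga1, higher in Rxfp1-rich neurons, against 17.15% of 32851 promoters. TAATTA was found in none of the 8 windows, against 5.29% of all promoters, and TGACGTCA, the cyclic AMP response element, in none against 1.79%. These 3 windows are shown because they hold the same motif on opposite sides of the divide. Capitals mark the motif, which occurs in 2 copies in Lrrc4c (chr2:96317919-96318218, plus strand), in 1 copy in Sdk1 (chr5:141241284-141241583, plus strand) and in 1 copy in Itga1 (chr13:115101915-115102214, minus strand), where it lies downstream of the annotated start.
Lrrc4c: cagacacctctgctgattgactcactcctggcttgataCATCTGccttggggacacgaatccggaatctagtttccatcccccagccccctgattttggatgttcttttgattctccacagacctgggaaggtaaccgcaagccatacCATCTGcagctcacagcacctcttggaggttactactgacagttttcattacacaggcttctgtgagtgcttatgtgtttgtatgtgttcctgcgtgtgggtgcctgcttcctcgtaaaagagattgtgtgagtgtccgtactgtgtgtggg
Sdk1: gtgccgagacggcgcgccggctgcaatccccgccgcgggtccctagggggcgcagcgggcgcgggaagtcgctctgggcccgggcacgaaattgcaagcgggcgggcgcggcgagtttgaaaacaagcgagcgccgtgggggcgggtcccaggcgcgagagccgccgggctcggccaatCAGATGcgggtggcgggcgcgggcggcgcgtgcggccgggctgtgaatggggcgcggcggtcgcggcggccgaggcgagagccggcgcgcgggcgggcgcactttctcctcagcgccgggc
Itga1: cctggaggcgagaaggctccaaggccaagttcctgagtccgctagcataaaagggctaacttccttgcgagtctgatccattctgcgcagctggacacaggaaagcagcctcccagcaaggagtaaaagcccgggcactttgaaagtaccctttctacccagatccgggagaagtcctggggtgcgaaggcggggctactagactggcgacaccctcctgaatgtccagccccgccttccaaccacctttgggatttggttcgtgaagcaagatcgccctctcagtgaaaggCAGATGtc
The Sdk1 window stood apart in base composition, with 78.3% G and C and 54 CG pairs, where the median promoter held 52.7% and 7.

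Among the immunoglobulin superfamily genes, Kirrel3, a homophilic adhesion molecule of synapse formation, had 653 and 809 CPM in the Shox2-rich neurons of libraries 1 and 2, against 20.6 and 68.6 CPM in the Rxfp1-rich neurons. Igsf11, a homophilic adhesion protein that binds a postsynaptic scaffold and AMPA receptors, had 307 and 291 CPM in Shox2-rich neurons, against 10.3 and 13.7 CPM in Rxfp1-rich neurons. Opcml, which is anchored in the membrane by a lipid, had 896 and 1052 CPM in Shox2-rich neurons, against 46.3 and 66.1 CPM in Rxfp1-rich neurons. All of these groups lay apart in both libraries, with the Shox2-rich neurons high. Sdk1, a homophilic protein known from layer-specific connections in the retina, had 604 and 656 CPM in Shox2-rich neurons, against 57.6 and 61.1 CPM in Rxfp1-rich neurons. The log2 ratios of Shox2-rich over Rxfp1-rich neurons were 4.27 ± 1.01 for Kirrel3, 4.65 ± 0.35 for Igsf11, 4.13 ± 0.20 for Opcml and 3.41 ± 0.02 for Sdk1 (SD over 2 libraries).

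The pair of leucine-rich repeat genes stood on opposite sides. Lrrc4c, also called netrin-G ligand 1, had 1329 and 1424 CPM in Shox2-rich neurons, against 182 and 202 CPM in Rxfp1-rich neurons. Lrrtm4, a postsynaptic protein that binds neurexins and heparan sulfate proteoglycans, had 43.7 and 5.86 CPM in Shox2-rich neurons, against 188 and 385 CPM in Rxfp1-rich neurons. Lrrc4c was high in the Shox2-rich neurons of both libraries and Lrrtm4 low in them, with no overlap between the populations. Their log2 ratios were 2.84 ± 0.04 for Lrrc4c and -4.07 ± 2.78 for Lrrtm4, whose ratio was the least even between the libraries, at -2.11 and -6.04.

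Csmd3 and Lrp1b had the widest gaps of the 10 genes. Csmd3, a transmembrane protein with many CUB and sushi domains that is known to shape dendrites, had 517 and 649 CPM in Shox2-rich neurons, against 4.11 and 3.74 CPM in Rxfp1-rich neurons. Lrp1b, a large endocytic receptor, had 388 and 674 CPM in Shox2-rich neurons, against 7.20 and 9.98 CPM in Rxfp1-rich neurons. The Rxfp1-rich values rest on 4 and 3 UMIs of Csmd3 and on 7 and 8 UMIs of Lrp1b. Log2 ratios were 7.21 ± 0.33 for Csmd3 and 5.91 ± 0.23 for Lrp1b. Fat4, a cadherin of planar cell polarity, lay on the other side, with 10.9 and 3.66 CPM in Shox2-rich neurons, against 58.6 and 63.6 CPM in Rxfp1-rich neurons. Itga1, the alpha 1 chain that pairs with integrin beta 1 to bind collagen and laminin, had 126 and 149 CPM in Shox2-rich neurons, against 776 and 692 CPM in Rxfp1-rich neurons. Their log2 ratios were -3.27 ± 1.20 for Fat4 and -2.42 ± 0.29 for Itga1.

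The 10 genes thus form 2 sides, 7 with more RNA in the Shox2-rich neurons (Csmd3, Kirrel3, Lrp1b, Igsf11, Opcml, Sdk1 and Lrrc4c) and 3 with more in the Rxfp1-rich neurons (Lrrtm4, Fat4 and Itga1). The genes nearest to even were Itga1 and Lrrc4c, and the most uneven was Csmd3. All 10 had groups that did not overlap, and nothing is read from this, since the contrast chose them. Over all genes, 35.9% of the 10869 tested passed in this comparison (edgeR's quasi-likelihood test, Benjamini-Hochberg adjusted p under 0.05). The number of genes past the test varied with the setting, from 3900 as reported to 1242 with another seed of the UMI split, 1202 with doublets kept, 1013 with DESeq2 and 645 at the finer clustering with its 14 Shox2-rich cells, and the cause was not tested. The Shox2-rich set was also smaller with another seed, at 102 cells, and with doublets kept, at 101, against 269 as reported. The ratios kept their sign where an alternative gave one, which 5 did for 8 of the genes, 4 for Csmd3 and 2 for Fat4. The ratio of Igsf11 ran from 4.80 to 6.81, that of Csmd3 from 7.18 to 8.49 and that of Lrrtm4 from -4.72 to -2.93 on the log2 scale.

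**Figure D1:**
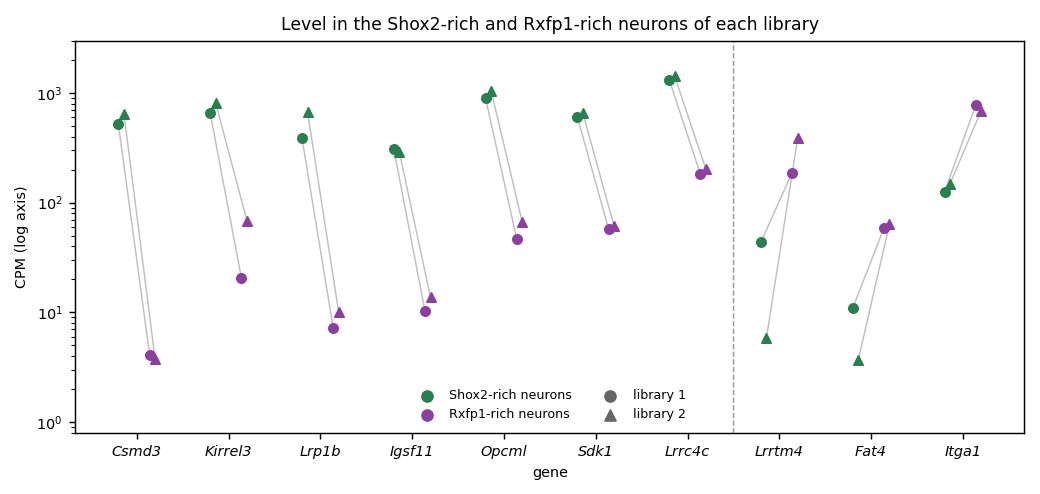
Level of each gene, in CPM on a log axis, in the Shox2-rich (green, left) and Rxfp1-rich (purple, right) neurons of library 1 (circles) and library 2 (triangles), with lines joining the populations of a library. The 7 genes left of the dashed line lie higher in Shox2-rich neurons and the 3 right of it lie lower, and the libraries are furthest apart for Lrrtm4 in Shox2-rich neurons, at 43.7 and 5.86 CPM.

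Within the Shox2-rich neurons the 7 genes were unequally spread, and cluster 4, with 44 cells in each library, held the highest level of each. Kirrel3 stood at 1839 and 2071 CPM in cluster 4, 384 and 357 CPM in cluster 3, and 142 and 61.3 CPM in cluster 1. Csmd3 stood at 1175 and 1578 CPM in cluster 4, 520 and 394 CPM in cluster 3, and 46.1 and 25.4 CPM in cluster 1. Lrp1b stood at 1127 and 1707 CPM in cluster 4, 224 and 288 CPM in cluster 3, and 64.1 and 78.2 CPM in cluster 1. The same order of clusters, without overlap between libraries, held for the other 4 genes of this side. Igsf11 had 622 and 561 CPM in cluster 4, 325 and 279 CPM in cluster 3, and 62.1 and 50.7 CPM in cluster 1. Opcml had 2534 and 2637 CPM in cluster 4, 510 and 505 CPM in cluster 3, and 208 and 93.0 CPM in cluster 1. Sdk1 had 1520 and 1603 CPM in cluster 4, 476 and 379 CPM in cluster 3, and 112 and 35.9 CPM in cluster 1. Lrrc4c had 2605 and 2814 CPM in cluster 4, 1455 and 1214 CPM in cluster 3, and 268 and 328 CPM in cluster 1. Cluster 1 overlapped the Rxfp1-rich neurons in Kirrel3, at 20.6 and 68.6 CPM in the latter, and in Sdk1, at 57.6 and 61.1 CPM. For Csmd3, Lrp1b, Igsf11, Opcml and Lrrc4c, cluster 1 lay above the Rxfp1-rich neurons without overlap.

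Shox2 itself did not follow this order. Its level was 127.1 and 83.8 CPM in cluster 4, 86.6 and 64.2 CPM in cluster 3, and 126 and 84.6 CPM in cluster 1, and with all UMIs in place of the tested share it was 100.4 and 73.6 CPM in cluster 4, 79.3 and 79.8 CPM in cluster 3, and 132 and 86.7 CPM in cluster 1. Cluster 4 thus did not hold the highest Shox2 level in both libraries by either count. Cntn5, which encodes a contactin and marked the Rxfp1-rich neurons at 7080 and 7752 CPM, stood at 90.4 and 13.6 CPM in cluster 4, 1736 and 4497 CPM in cluster 3, and 529 and 1161 CPM in cluster 1. Cluster 4 was thus nearly without Cntn5, and cluster 3 held both Cntn5 and the 7 genes at middle levels. Cluster 3 was led in part by H2-Eb1 and Cd74, genes of antigen presentation, and its dendritic cell markers summed to 185 and 102 CPM, against 28.2 and 18.1 CPM in cluster 4. Malat1 in clusters 4 and 3 was 63223 and 63373 CPM, and 74894 and 87783 CPM. Without cluster 1, whose Malat1 was lowest, the log2 ratios of Shox2-rich over Rxfp1-rich neurons were larger for every member, such as 7.78 for Csmd3, 3.34 for Lrrc4c, -4.72 for Lrrtm4 and -3.17 for Itga1.

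On the Rxfp1 side the clusters differed less. Lrrtm4 stood at 348 and 454 CPM in cluster 5 and at 107 and 348 CPM in cluster 2, and Itga1 at 956 and 851 CPM in cluster 5 and at 684 and 605 CPM in cluster 2. Fat4 stood at 76.3 and 42.2 CPM in cluster 5 and at 49.6 and 75.4 CPM in cluster 2. Itga1 and Lrrtm4 were thus higher in cluster 5 than in cluster 2 within each library, whereas Fat4 was higher in cluster 5 in library 1 and lower in library 2. Among Shox2-rich clusters, Itga1 was highest in cluster 1, at 200 and 288 CPM, against 110 and 115 CPM in cluster 4 and 73.6 and 37.7 CPM in cluster 3, and Fat4 had no UMI among the tested UMIs of cluster 4 in either library.

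**Figure D2:**
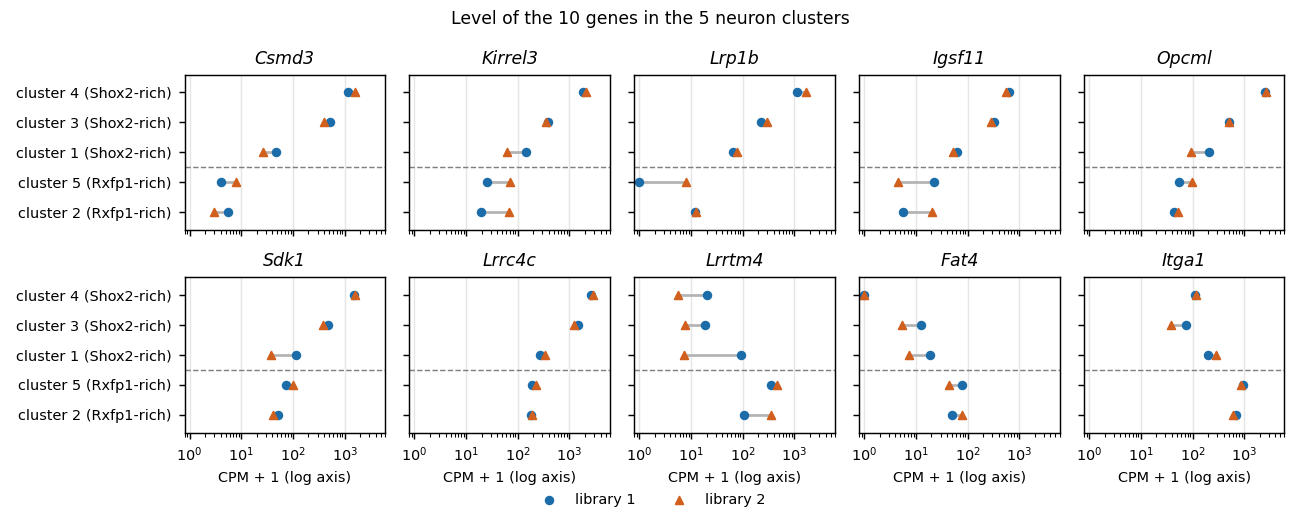
Level of each gene as CPM + 1 on a log axis in the 5 neuron clusters, with library 1 as circles, library 2 as triangles and a grey bar between them. The upper 3 rows are Shox2-rich and the lower 2 are Rxfp1-rich. The 7 genes of the Shox2 side fall from cluster 4 through cluster 3 to cluster 1, with Csmd3 at 1175 and 1578 CPM, 520 and 394 CPM, and 46.1 and 25.4 CPM.

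Neuron-named droplets with fewer than 5000 UMIs, 639 and 626 in number, were kept out of these values. They held Shox2 at 94.7 and 113 CPM, against 68.9 and 51.2 CPM in all neurons with at least 5000 UMIs, and their Malat1 was 7245 and 8992 CPM. Csmd3 stood in them at 44.5 and 48.1 CPM, against 312 and 411 CPM in the deeper neurons. Opcml stood at 64.6 and 90.8 CPM against 557 and 687 CPM, Lrrc4c at 217 and 214 CPM against 871 and 972 CPM, and Itga1 at 208 and 216 CPM against 385 and 350 CPM. The droplets thus held less of these 4 genes than the deeper neurons and more Shox2, and the part of nuclear RNA in this was not tested.

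Single neurons were compared after each had been thinned once to 5000 UMIs. Lrrc4c was found in 76.9% (exact 95% interval 69.2 to 83.4) and 79.5% (71.3 to 86.3) of the Shox2-rich neurons of libraries 1 and 2, against 32 of 80 (29.2% to 51.6%) and 36 of 70 (39.2% to 63.6%) Rxfp1-rich neurons. Csmd3 was found in 46.9% (38.7 to 55.3) and 46.7% (37.6 to 56.0) of Shox2-rich neurons, against 1 of 80 and 1 of 70 Rxfp1-rich neurons (upper limits of 6.77% and 7.70%). Itga1 was found in 36.7% (28.9 to 45.1) and 37.7% (29.1 to 46.9) of Shox2-rich neurons, against 92.5% (84.4 to 97.2) and 84.3% (73.6 to 91.9) of Rxfp1-rich neurons. These intervals cover counting error only, and nothing is read from their distance, since the contrast chose the genes. Lrrtm4 was found in 7 of 147 and 6 of 122 Shox2-rich neurons, against 27 of 80 and 23 of 70 Rxfp1-rich neurons. Fat4 was found in 9 of 147 and 5 of 122 Shox2-rich neurons, against 18 of 80 and 14 of 70 Rxfp1-rich neurons.

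In cluster 4 most neurons held each of the Shox2-side genes. Of its 44 neurons in each library, Sdk1 was found in 44 and 42, Kirrel3 in 43 and 41, Lrrc4c in 44 and 43, Opcml in 41 and 43, Igsf11 in 39 and 40, Csmd3 in 37 and 39, and Lrp1b in 32 and 40. The 7 genes together took a median of 51.5 and 61 of the 5000 UMIs in these neurons, against 11.5 and 10.5 in cluster 3 and 1 and 1 in cluster 1. In cluster 5, Itga1 was found in 27 of 29 and 28 of 30 neurons and Lrrtm4 in 17 and 14 of them, whereas in cluster 2 Lrrtm4 was found in 10 of 51 and 9 of 40. Kirrel3 was found in 4 of 49 and 6 of 42 neurons of cluster 1, against 4 of 51 and 7 of 40 in cluster 2. Opcml was found in 9 and 4 of these cluster 1 neurons, against 10 and 11 in cluster 2. Csmd3, Lrp1b and Igsf11 had larger shares in cluster 1 than in clusters 2 and 5 in each library.

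The share of all neurons with a UMI can be set against cells that should lack the gene. Csmd3 was found in 30.8% and 30.2% of all neurons, against 0.985% and 1.10% of blood endothelial cells, also thinned to 5000 UMIs. Lrp1b was found in 26.4% and 28.6%, against 1.48% and 2.58%, and Opcml in 45.8% and 45.3%, against 1.48% and 1.47% of endothelial cells. For these genes the neuron share was far above that background. Kirrel3, Fat4 and Itga1 are carried by endothelium itself, so macrophages served instead. Kirrel3 was found in 36.6% and 40.1% of neurons, against 12 of 869 and 5 of 833 macrophages. Fat4 was found in 11.9% and 9.90% of neurons, against 0 of 869 (exact upper limit 0.424%) and 4 of 833 macrophages. Itga1 was found in 56.4% and 54.7% of neurons, against 8.63% and 9.84% of macrophages, so each of these shares also lay above the background. Macrophages had the lowest level of the 10 classes for Kirrel3 and Itga1 and ranked 9 for Fat4. Nothing is read from these distances, since the genes were chosen by their counts in these same neurons. Igsf11, Sdk1, Lrrc4c and Lrrtm4 are not set against a background here. Thinning left out 363 and 329 endothelial cells and 184 and 212 macrophages with fewer UMIs and no neurons. Without thinning, when neurons had a median of 19561 and 22175 UMIs, against 6992 and 7018 in endothelial cells, the Csmd3 shares were 40.1% and 37.5% of neurons and 2.06% and 2.41% of endothelial cells.

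Pairs of genes from the same side were found together in neurons more often than their separate frequencies give, and pairs from opposite sides less often. Within a library, the observed number of neurons with both genes was divided by the number expected if the genes were spread independently. Csmd3 and Kirrel3 were found together in 62 and 52 neurons, with 25.6 and 23.3 expected, a ratio of 2.42 and 2.24. Csmd3 and Lrp1b were found together in 43 and 42 neurons, with 18.5 and 16.6 expected, which gave 2.32 and 2.53. All 24 pairs of the same side had ratios above 1 in both libraries, between 1.26 and 2.53, with medians of 1.79 and 1.89. This includes the 3 pairs of the Rxfp1 side, in which Lrrtm4 and Itga1 were found together in 28 and 24 neurons, with 19.2 and 15.9 expected.

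For opposite sides the medians were 0.706 and 0.684 over 21 pairs, and 19 of these lay below 1 in both libraries. Csmd3 and Itga1 were found together in 25 and 15 neurons, with 39.5 and 31.7 expected. Igsf11 and Fat4 were found together in 6 neurons and 1 neuron, with 10.3 and 6.83 expected. The exceptions were Kirrel3 with Lrrtm4, at 0.563 and 1.03, and Sdk1 with Lrrtm4, at 0.742 and 1.19. Neurons of a library share its preparation, and these ratios describe the cells of these libraries only, with no test. Since the neuron types differ in each gene, ratios above and below 1 restate that choice cell by cell.

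**Figure D3:**
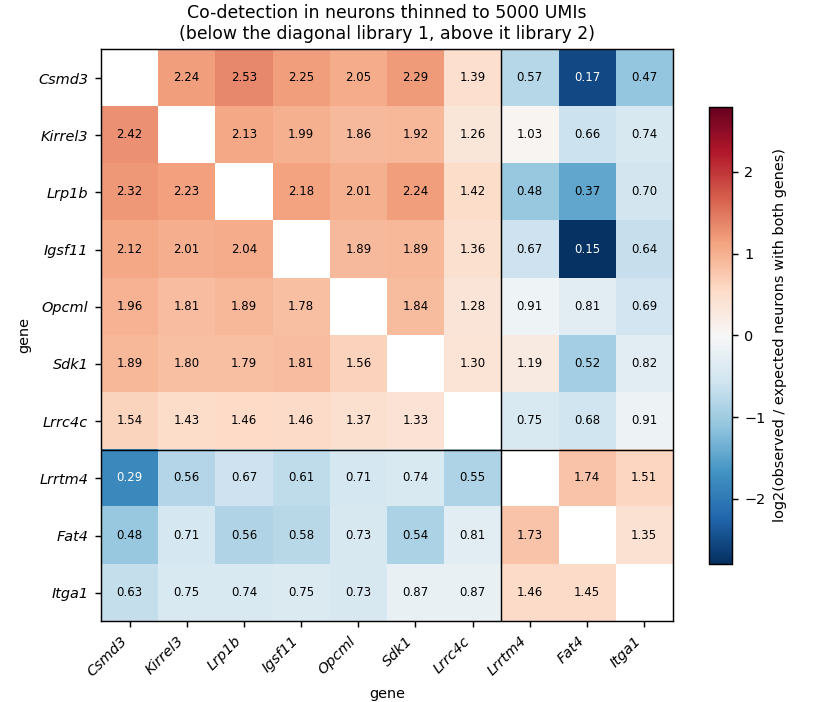
Observed over expected number of neurons with a UMI of both genes, after thinning to 5000 UMIs, for each pair of genes in library 1 (below the diagonal, 227 neurons) and library 2 (above it, 192 neurons). Colour gives log2 of the ratio and black lines part the 7 Shox2-side from the 3 Rxfp1-side genes. All pairs within a side lie above 1 and most pairs across sides lie below it, down to 0.147 for Igsf11 and Fat4 in library 2.

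Neurons that held both sides in number were few on the Shox2 side. Of 103 and 82 Shox2-rich neurons with at least 5 UMIs of the 10 genes, 87 and 74 drew at least 90% of these from the 7 Shox2-side genes. Of 55 and 47 such Rxfp1-rich neurons, 14 and 11 drew at most 10% from those 7 genes, and 39 and 34 lay in between. Over all Rxfp1-rich neurons, the median was 1 and 2 Shox2-side UMIs, beside a median of 5 and 4 UMIs of the 3 Rxfp1-side genes. At such low counts, 1 Shox2-side UMI can already put a neuron above 10%, so the neurons in between need not hold many. The Shox2-rich neurons held a median of 11 and 12 UMIs of the 7 genes and of 0 of the 3 genes.

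**Figure D4:**
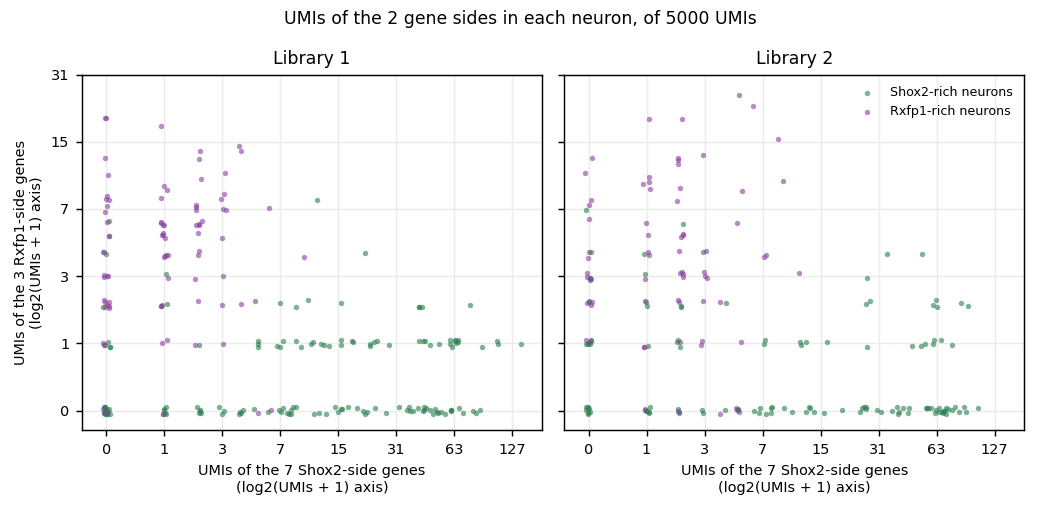
UMIs of the 7 Shox2-side genes (horizontal axis) and of the 3 Rxfp1-side genes (vertical axis) in each neuron thinned to 5000 UMIs, on log2(UMIs + 1) axes with a small random offset of the points, for Shox2-rich (green) and Rxfp1-rich (purple) neurons of each library. Shox2-rich neurons stretch along the horizontal axis, with a median of 11 and 12 UMIs, and Rxfp1-rich neurons stay at its low end, with 1 and 2.

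Neurons can also be sorted by the transcripts of Shox2 and Rxfp1 alone. In library 1, Kirrel3 was found in 24 of 39 neurons with a Shox2 and no Rxfp1 UMI, against 18 of 87 with a Rxfp1 and no Shox2 UMI, and in library 2 in 24 of 37, against 19 of 77. Itga1 was found in 15 of 39 and 12 of 37 neurons with only Shox2, against 67 of 87 and 62 of 77 with only Rxfp1. Lrrtm4 was found in 1 of 39 and 0 of 37 neurons with only Shox2, against 22 of 87 and 22 of 77 with only Rxfp1. The shares of all 10 genes lay on the same sides in both libraries when no cluster was used. This restates the choice of the genes, which were picked in these libraries by a contrast of neurons named by Shox2 and Rxfp1. No UMI of Shox2 or Rxfp1 was found in 93 of 227 and 71 of 192 neurons, which this sorting leaves out. A further 8 and 7 neurons held UMIs of both genes, and of these 6 and 5 held Kirrel3 and 2 and 1 held Itga1.

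The genes most like each member were found over 6626 genes, as the lower of the libraries' Pearson correlations of log2(UMIs + 1) across the 419 thinned neurons, which share library and depth. Kirrel3 was most like Opcml (0.823) and Sdk1 (0.807). Csmd3, Lrp1b and Igsf11 were each most like Kirrel3, at 0.746, 0.717 and 0.695, and Lrrc4c was most like Opcml (0.757), followed by Nrg1 (0.754). So 6 of the 7 Shox2-side genes had only other members among their 2 most alike genes. Nothing is read from this, since the 7 genes were chosen for a contrast that they share across these same neurons. On the Rxfp1 side, Itga1 was most like A830018L16Rik (0.680) and Cadm1 (0.538), and Lrrtm4 most like Cadm1 (0.453) and Sctr (0.452). Fat4 reached only 0.252 with A830018L16Rik, and in sparse counts that is weak.

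Outside neurons, the 10 genes had different carriers. All 10 passed as higher in neurons than in the mean of the 9 other classes, where 35.6% of the 16060 genes tested were higher (edgeR's quasi-likelihood test, Benjamini-Hochberg adjusted p from 3.3e-65 for Csmd3 to 7.0e-17 for Fat4). This follows in part from the choice of genes that part neurons, so it is no independent evidence. Fitted log2 fold changes were 6.19 (SE 0.10) for Lrp1b, 5.72 (SE 0.11) for Kirrel3, 5.18 (SE 0.08) for Opcml, 3.94 (SE 0.08) for Sdk1, 3.64 (SE 0.06) for Lrrc4c, 3.01 (SE 0.10) for Igsf11 and 1.85 (SE 0.07) for Itga1. For Csmd3, Lrrtm4 and Fat4 none is given because mast cells held no UMI of them. The levels by class below show how far this mean stands for a single class, and neurons had the highest level of the 10 classes for 4 of the 10 genes in library 1 and for 5 in library 2, the fifth being Lrrc4c. Neuron genes differed in how much of their level other classes held. Th, which encodes tyrosine hydroxylase of catecholamine synthesis, had in endothelial cells 21.8% and 27.1% of its neuron level, and Csmd3 0.795% and 0.895%.

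Csmd3 and Lrp1b were nearly confined to neurons among these 10 classes. Csmd3 stood at 312 and 411 CPM in neurons, and no other class exceeded 6.23 CPM in either library. Lrp1b stood at 236 and 429 CPM in neurons, and the next class, myelinating Schwann cells, at 6.99 and 14.5 CPM. Among the other classes, satellite or non-myelinating glia passed as higher than the mean of the rest for Csmd3, at 3.66 and 3.47 CPM (edgeR adjusted p = 0.021). With another seed of the UMI split this call was lost (edgeR adjusted p = 0.18).

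Glia carried Igsf11 and Lrrc4c at neuronal levels or above. Igsf11 stood at 189 and 189 CPM in neurons, 344 and 344 CPM in satellite or non-myelinating glia and 217 and 214 CPM in myelinating Schwann cells, so both glial classes lay above neurons without overlap. Lrrc4c stood at 871 and 972 CPM in neurons and at 889 and 916 CPM in satellite or non-myelinating glia, with overlap, and at 170 and 176 CPM in myelinating Schwann cells. Against the mean of the remaining classes other than neurons, these glia were higher by 4.53 (SE 0.07) for Igsf11 and by 4.24 (SE 0.06) for Lrrc4c on the log2 scale (edgeR adjusted p = 1.2e-64 and 3.1e-69). Satellite or non-myelinating glia passed as higher for 7 of the 10 genes, where 32.8% of all genes tested did. Set against glia, the Shox2-rich neurons alone held more Lrrc4c, 1329 and 1424 CPM, and a level of Igsf11, 307 and 291 CPM, below that of the glia, whereas the Rxfp1-rich neurons held less of both, at 182 and 202 CPM and at 10.3 and 13.7 CPM. The 5 glia clusters ran from 290 to 512 CPM for Igsf11 and from 641 to 1405 CPM for Lrrc4c, with cluster 5 the highest in both genes and both libraries.

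Myelinating Schwann cells carried Sdk1 and Lrrtm4. Sdk1 stood at 386 and 436 CPM in neurons and at 403 and 558 CPM in myelinating Schwann cells, which overlapped, and perineurial or epineurial cells followed at 64.4 and 71.9 CPM. Lrrtm4 stood at 101 and 146 CPM in neurons and was higher, at 168 and 206 CPM, in myelinating Schwann cells. Rxfp1-rich neurons held 188 and 385 CPM of Lrrtm4, which overlapped the level of these Schwann cells. Among classes other than neurons, myelinating Schwann cells were higher for Sdk1 by 4.74 (SE 0.14) and for Igsf11 by 3.64 (SE 0.18) on the log2 scale (edgeR adjusted p = 1.5e-44 and 2.8e-29). They passed as higher for 4 of the 10 genes, where 12.5% of all genes did, and satellite or non-myelinating glia came next for Lrrtm4, at 23.1 and 23.8 CPM.

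Vessels carried Kirrel3, Fat4 and Itga1. Kirrel3 stood at 401 and 535 CPM in neurons and at 252 and 275 CPM in blood endothelial cells, followed by pericytes or smooth muscle cells with 12.6 and 23.8 CPM, whose call against the remaining classes was lost with DESeq2 (adjusted p = 0.058). Fat4 stood at 29.96 and 25.8 CPM in neurons and was higher in blood endothelial cells, at 92.6 and 87.4 CPM, also above the Rxfp1-rich neurons with 58.6 and 63.6 CPM. Itga1 stood at 385 and 350 CPM in neurons, 395 and 439 CPM in pericytes or smooth muscle cells, 293 and 309 CPM in endothelial cells and 224 and 239 CPM in satellite or non-myelinating glia. Endothelial cells passed as higher for these 3 of the 10 genes, where 27.8% of all genes did, with log2 fold changes of 5.79 (SE 0.12) for Kirrel3 and 2.04 (SE 0.07) for Itga1 (edgeR adjusted p = 2.0e-56 and 4.0e-41). The Rxfp1-rich neurons, at 776 and 692 CPM, had more Itga1 than any of these classes, and the Shox2-rich neurons, at 126 and 149 CPM, had less than endothelium and mural cells.

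Pericytes or smooth muscle cells and fibroblasts carried Opcml. It stood at 557 and 687 CPM in neurons, 136 and 141 CPM in pericytes or smooth muscle cells, 62.0 and 52.1 CPM in fibroblasts and 39.4 and 44.8 CPM in satellite or non-myelinating glia, with no overlap down this order. Pericytes or smooth muscle cells were higher than the mean of the remaining classes for Opcml by 3.56 (SE 0.14) and for Itga1 by 2.46 (SE 0.08) on the log2 scale (edgeR adjusted p = 5.6e-37 and 3.6e-44), and they passed as higher for 4 of the 10 genes, where 20.7% of all genes did. Their cluster 14 held 286 and 304 CPM of Opcml, against 59.5 and 48.2 CPM in cluster 12. In fibroblasts the gene was likewise uneven, at 280 and 222 CPM in cluster 10 and no more than 47.1 CPM in the other 3 fibroblast clusters. Sdk1 followed it there, at 227 and 229 CPM in fibroblast cluster 10 and no more than 57.1 CPM in the others. Fibroblasts passed as higher for 3 of the 10 genes (Opcml, Sdk1 and Fat4), where 29.2% of all genes did. When doublets were kept none of these held, and the Sdk1 fold change turned to -0.57. In that setting a cluster of 913 cells, led by C3, C7, Inmt and Dpt as cluster 10 was, went unnamed. It therefore lay outside the fibroblasts, and its part in this change was not tested. Perineurial or epineurial cells passed as higher for 2 of the 10 genes (Sdk1 and Itga1), where 24.1% of all genes did. None of the 10 was higher in dendritic cells, macrophages or mast cells, where 28.9%, 28.5% and 7.61% of all genes were.

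**Figure D5:**
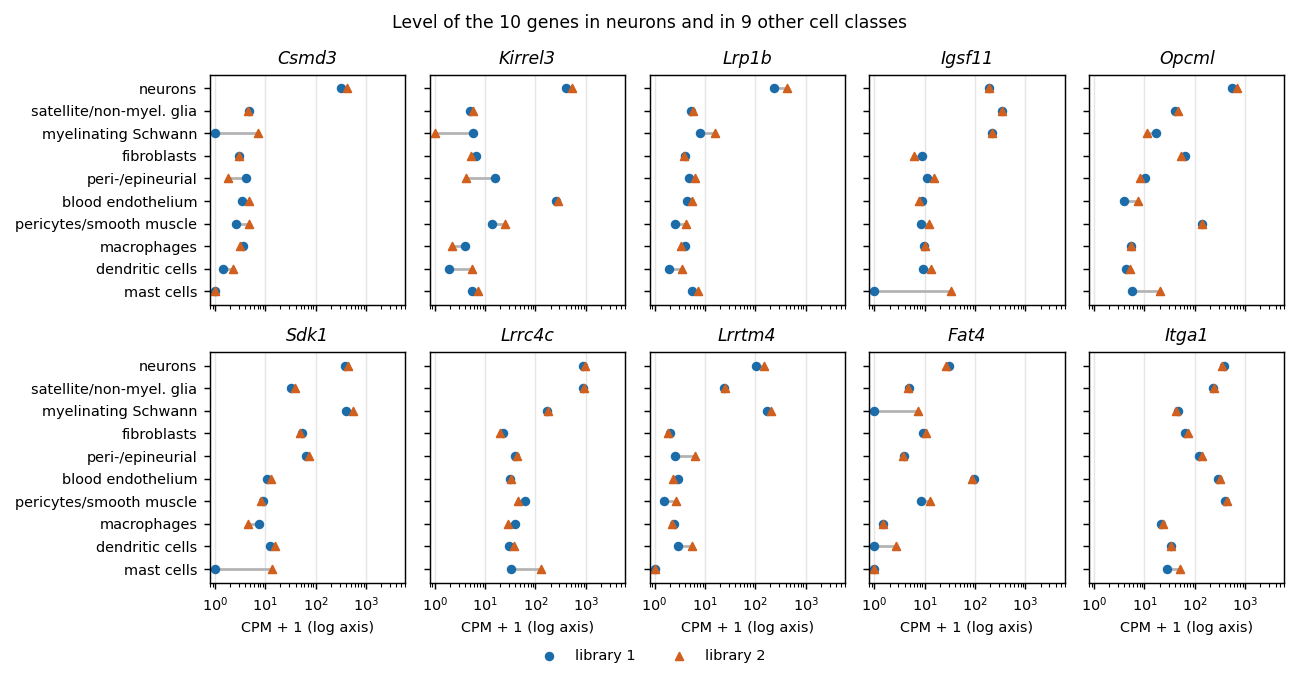
Level of each gene as CPM + 1 on a log axis in neurons (top row) and 9 other classes of cells, with library 1 as circles, library 2 as triangles and a grey bar between them. Csmd3 and Lrp1b stand out in neurons, whereas glia reach the neurons for Lrrc4c (889 and 916 CPM) and exceed them for Igsf11 (344 and 344 CPM), and blood endothelium exceeds them for Fat4 (92.6 and 87.4 CPM).

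The relatives and partners of the 10 genes, 66 in all, were split between the neuron types. Of 40 that were tested, 12 were higher and 9 lower in Shox2-rich than in Rxfp1-rich neurons and 19 did not pass (edgeR, Benjamini-Hochberg adjusted p under 0.05), with a median log2 fold change of 0.02. With DESeq2 or a finer clustering 9 passed in place of 21. Over all genes tested, 20% were higher and 15.8% lower and the median of all was -0.01, but lower calls outnumbered higher ones with another seed (559 higher and 683 lower), with doublets kept (577 and 625) and at the finer clustering (317 and 328). Here Ptprd, a LAR-family phosphatase that binds synaptic partners, had 446 and 506 CPM in Shox2-rich neurons, against 90.5 and 81.1 CPM in Rxfp1-rich neurons (log2 fold change 2.37, SE 0.16, edgeR adjusted p = 3.5e-49). Fat3, Gpc6 and Itgb8 were also higher, by 2.64, 2.42 and 2.05, though Fat3 stood at only 9.56 and 14.6 CPM in Shox2-rich neurons and Gpc6 and Itgb8 stood higher in satellite or non-myelinating glia. Fat3 and Itgb8 lay below the filter with another seed and at the finer clustering, Fat3 also with doublets kept, and DESeq2 gave neither an adjusted p. Nrxn3, a neurexin and so of the family that binds Lrrtm4, had 47.1 and 43.9 CPM in Shox2-rich neurons, against 188 and 233 CPM in Rxfp1-rich neurons (log2 fold change -2.29, SE 0.17, edgeR adjusted p = 2.1e-37). Nrxn3 and its partner Lrrtm4 thus were both low in Shox2-rich neurons.

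Among the integrins, Itga2, the chain of the other main collagen-binding integrin, was lower in Shox2-rich neurons by 1.85 on the log2 scale, at 30.04 and 23.4 CPM against 114 and 67.3 CPM, and Itga6 was lower too, with a log2 fold change of -1.18 that did not pass with DESeq2, with doublets kept or at the finer clustering. The glypican Gpc5 was lower as well (-2.02), but lay below the filter with another seed, with doublets kept and at the finer clustering, and DESeq2 gave it no adjusted p. Itgb1, the beta chain that Itga1 pairs with, was higher instead, at 266 and 269 CPM in Shox2-rich neurons, against 153 and 130 CPM in Rxfp1-rich neurons (log2 fold change 0.83, SE 0.15, edgeR adjusted p = 2.9e-07). This call on Itgb1 was lost with another seed (0.29, edgeR adjusted p = 0.32), with doublets kept (0.36, edgeR adjusted p = 0.20) and at the finer clustering (0.58, edgeR adjusted p = 0.25). Csmd1 was higher in Shox2-rich neurons (1.61), at 1277 and 1108 CPM against 343 and 390 CPM, though satellite or non-myelinating glia held 4721 and 5192 CPM of it, and Csmd2 was lower (-0.81). The part of glial RNA in these differences was not tested. Ntng1, which encodes the netrin-G that Lrrc4c binds, was lower in Shox2-rich neurons (edgeR adjusted p = 1.1e-07), at 56.7 and 81.2 CPM against 124 and 132 CPM. As reported, none of the 3 IgLON relatives tested or of the Sidekick list (Sdk2 and Magi1) passed. Lsamp passed as higher with another seed and with doublets kept, and Magi1 in these and at the finer clustering. Dchs1, a Dachsous protein that Fat4 binds, stood at 3.41 and 2.93 CPM in Shox2-rich neurons and at 5.14 and 2.49 CPM in Rxfp1-rich neurons, below the filter of the test.

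Against other cells, 30 of 59 relatives tested were higher in neurons and 21 lower, where 35.6% and 29.5% of all genes were, and their median log2 fold change was 0.73, where all genes had 0.04. Csmd2 (5.37), Nrxn3 (5.03) and Lrp8 (4.99) were among the furthest above, and Itga5 (-3.26), Itga9 (-3.06), Itga4 (-2.42) and Lrp5 (-2.29) the furthest below. By family, 6 of 7 netrin-G ligands, netrin-Gs and LAR phosphatases and 7 of 10 LRRTM proteins, neurexins and glypicans were higher in neurons. Of 16 integrins tested besides Itga1, 4 were higher and 10 lower. Itga1 was also higher, but nothing is read from its place among them, since it was chosen in these same neurons.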

How the data were processed

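Single-cell RNA was measured in 2 libraries of dissociated mouse ganglia. The authors deposited a table of raw UMI counts per gene and cell for each library. Per the submitters' processing notes, Cell Ranger 6.1.2 and mm10 were used, whereas the annotation release, cell filter, strand use and intron counting were not stated in the sources used here. Reads of the 10 genes and of counted genes overlapping them, such as Kirrel3os and Pelo, can therefore not be told apart. Csmd3 and Lrp1b are the exceptions, since no counted gene overlaps them.

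The libraries held 12594 and 12279 barcodes with 94521010 and 95235439 UMIs (medians 6483 and 6498 per cell). Cells with at least 500 genes, 1000 UMIs and at most 20% mitochondrial UMIs were kept, which left 12594 and 12278, and 664 and 711 doublets called by scrublet within scanpy (5.272% and 5.791%) were left out. Each count was split at random with a probability of 0.5. The first share was clustered without the 10 genes and named by markers (scanpy 1.11.5, leidenalg 0.10.2, Python 3.11.15), and the second gave sums per library and class, as CPM (counts scaled to a common library total). Satellite and non-myelinating glia were joined, genes of other cells were left out of the neuron clustering and its resolution of 0.5 was set after the clusters had been seen. Detection and co-detection used all UMIs thinned to 5000 per cell.

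Sums of 10 classes in 2 libraries were tested with edgeR 4.0.16 (R 4.3.3), using the quasi-likelihood test, TMM scaling, a filter on low counts, library as a block and Benjamini-Hochberg adjustment over all genes, with DESeq2 1.42.0 as an alternative. The replicate number names the library, so cells of a library pair across classes by preparation. The fit for the neuron populations had 4 sums, 1 residual degree of freedom and an infinite prior. Its p-values therefore do not reflect a gene's own spread between the libraries. The fit for neurons against other classes had 20 sums, 9 residual degrees of freedom and a prior of 65.55. On simulated counts for neurons against other classes, 97 of 100 genes set to a log2 change of 1 were recovered, and for the neuron populations 44 of 100. The 10 genes and all lists were chosen with earlier results of these data known. Named besides the 10 genes were the 2 most alike genes of each, related genes past the test with the highest and lowest fold changes (up to 4 each way, of which 1 is not reported here), and control genes. Csmd1, Csmd2, Itgb1, Ntng1, Sdk2, Magi1, Lsamp and Dchs1 were named after their values were seen, as relatives or partners of single members or as exceptions.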

Additional observations from a re-analysis of the deposited data

How the results depend on the processing

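With another seed of the UMI split 1242 genes differed between Shox2-rich and Rxfp1-rich neurons, with doublets kept 1202, with DESeq2 1013 and at resolution 0.8, chosen after seeing the data, 645, against 3900 as reported. Of the related genes, 9 passed at resolution 0.8 and 9 with DESeq2, against 21. The Sdk1 fold change in fibroblasts turned to -0.57 with doublets kept, where those of Opcml (0.32) and Fat4 no longer passed. The fibroblasts then lacked an unnamed cluster of 913 cells that shared most leading genes with fibroblast cluster 10. The Csmd3 call in satellite or non-myelinating glia was lost with another seed, with doublets kept and with DESeq2. The Shox2-rich neurons were 102 cells with another seed, 101 with doublets kept and 14 at resolution 0.8, against 269 as reported. The causes were not tested.

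The median share of neurons with a UMI over the 10 genes, 37.7% as reported, was 53.0% with all UMIs, 38.4% in neurons with at least 10000 UMIs and 36.4% with doublets kept. Median co-detection was 1.84 for pairs of the same side and 0.695 for opposite sides, against 1.39 and 0.876 with all UMIs, and 0.625 for opposite sides with doublets kept. With 1 library left out, these ran from 37.4% to 38.0%, from 1.79 to 1.89 and from 0.684 to 0.706, and 4 to 5 of the 10 genes were highest in neurons.

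Without the replicate block, 10353 genes differed between neurons and other classes, against 10464, and 3438 between the neuron populations, against 3900. Without cluster 1, an alternative added after seeing the data, 10715 genes differed between neurons and other classes. Other size factors moved the median fold change of neurons over other classes from 0.04 to 0.18 on the log2 scale. The share of higher calls moved by over 10 percentage points in these cases. In mast cells there were 1222 higher and 801 lower calls as reported, against 1719 and 440 with DESeq2, 1371 and 550 with other size factors and 1079 and 426 with doublets kept. In glia there were 5275 and 3474, against 4353 and 4805 with DESeq2. In neurons there were 5724 and 4740, against 7420 and 4036 with no filter on low counts. In pericytes or smooth muscle cells there were 3319 and 2823, against 3497 and 1907 with doublets kept. With doublets kept the classes compared were not the same, since T or natural killer cells and an erythroid class joined them. That erythroid class was a cluster of 855 cells with a median of 1822 UMIs. It was led by haemoglobin genes and by Slc6a2, Syt4 and Scg2, which led a neuron-named cluster as reported. The part of this in the calls was not tested. Between the neuron populations there were 2179 and 1721, against 559 and 683 with another seed. With 2 libraries, a group of 2 values limits every SD, and low counts limit Fat4 and Csmd3 most.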
